A study of Mus musculus with 12 samples.

Results

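The proteasome subunit genes of mouse dorsal epidermis were examined in libraries labelled as a double knockout of VDR, the receptor for vitamin D, and of the transcriptional coactivator Med1, and in their controls. The genes are the protein-coding mouse genes whose symbol begins with Psma, Psmb, Psmc, Psmd or Psme and a digit, with 1 FPKM or more in at least 3 of the 12 libraries. FPKM is the number of fragments scaled by transcript length and by the mapped fragments of the library. The rule gave 44 genes of 13298 that reached that level, out of 46 candidates by name. Both candidates that missed it have tissue-restricted forms elsewhere: Psma8, of the testis, lay between 0 and 0.22 FPKM, and Psmb11, of the thymus, between 0.39 and 0.96 FPKM.

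The 4 groups held 3 libraries each, all from C57BL/6 mice that carried loxP-flanked alleles of both genes (VDR fl/fl, Med1 fl/fl). Controls had no Cre (K14 Cre-/-), and the mice labelled DKO had 1 Cre allele (K14 Cre+/-), under the promoter of keratin 14, a gene of basal keratinocytes that leukocytes and dermal cells do not use. Each genotype was sampled at postnatal day 36 (P36) and at 6 months. The epidermis was parted from the dermis by brief heating. Whether replicates within a group were different animals is not in the labels, and the p-values reflect variation among these libraries, which may be technical.

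The proteasome degrades proteins tagged with ubiquitin. Its 20S core is a barrel of alpha-subunit and beta-subunit rings whose cutting sites lie on the beta subunits encoded by Psmb5, Psmb6 and Psmb7. The 19S particle caps the barrel, binds ubiquitin chains and unfolds the substrate with a ring of ATPases. Leukocytes, and other cells exposed to interferon gamma, replace the 3 cutting subunits with Psmb8 (for Psmb5), Psmb9 (for Psmb6) and Psmb10 (for Psmb7), which form the immunoproteasome, and make the PA28 cap from Psme1 and Psme2, a system known for producing peptides for MHC class I. In keratinocytes, which turn over proteins throughout differentiation, the standard form is the usual one.

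By role, the 44 genes comprised 7 alpha subunits, 4 beta subunits without a cutting site, the 3 standard cutting subunits, 6 ATPases and 11 other subunits of the 19S particle, which together make 31 standard subunits. The 5 immunoproteasome genes were Psmb8, Psmb9, Psmb10, Psme1 and Psme2. The others were 3 chaperones of 19S assembly (Psmd5, Psmd9 and Psmd10), the caps Psme3 (PA28 gamma) and Psme4 (PA200), and 3 genes taken by name alone. Of these last, Psmc3ip and Psme3ip1 encode no proteasome subunit, and Psme2b is a close copy of Psme2, so that short reads could be divided between them. Psme2b reached at most 6.05 FPKM, against 66.2 FPKM or more for Psme2.

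Promoter sequence is shown for the cutting subunits that replace each other, since the results turn on these pairs; Psmb7 is named only. Each stretch is the 150 bases before the RefSeq start site on the GRCm38.p6 build, written 5′ to 3′ on the gene's strand, with motif matches in capitals. The stretches lie at chr14:54617996-54618145 (minus strand) for Psmb5, chr17:34198045-34198194 (plus strand) for Psmb8, chr11:70525207-70525356 (plus strand) for Psmb6, chr17:34187331-34187480 (minus strand) for Psmb9 and chr8:105938393-105938542 (minus strand) for Psmb10.
Psmb5: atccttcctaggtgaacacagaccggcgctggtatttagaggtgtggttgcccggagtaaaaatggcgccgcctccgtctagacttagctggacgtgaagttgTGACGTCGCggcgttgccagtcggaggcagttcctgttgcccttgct
Psmb8: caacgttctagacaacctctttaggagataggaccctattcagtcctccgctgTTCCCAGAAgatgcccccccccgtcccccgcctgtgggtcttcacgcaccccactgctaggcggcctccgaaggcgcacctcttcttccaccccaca
Psmb6: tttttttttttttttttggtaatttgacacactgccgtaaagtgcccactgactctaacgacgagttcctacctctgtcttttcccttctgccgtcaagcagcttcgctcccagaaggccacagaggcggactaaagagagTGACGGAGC
Psmb9: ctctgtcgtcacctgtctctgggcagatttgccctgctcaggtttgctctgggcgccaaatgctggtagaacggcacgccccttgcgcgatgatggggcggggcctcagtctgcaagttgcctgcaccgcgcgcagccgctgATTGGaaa
Psmb10: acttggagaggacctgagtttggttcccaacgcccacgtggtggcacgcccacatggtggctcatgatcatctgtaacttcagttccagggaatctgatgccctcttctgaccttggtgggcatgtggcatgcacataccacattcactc

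The capitals mark the antioxidant response element core TGACNNNGC in Psmb5, starting at position -47 from the start site, and in Psmb6, starting at position -9. In Psmb8 they mark a gamma-activated form, TTCNNNGAA, at position -97, and in Psmb9 a CCAAT box on the opposite strand at position -8. The Psmb10 stretch held none of the searched letters. The antioxidant response element core is the sequence that Nfe2l1 and Nfe2l2 are known to bind.

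Each motif was searched on both strands in 300-base RefSeq windows, from 250 bases before to 50 after the start site, for 38 of the 44 genes and for all 27025 genes of the promoter table. None of the capitals overlapped another motif. The antioxidant response element core was in 6 of the 38 genes (15.8%), against 14.0% of all genes, and in 0 of the 5 immunoproteasome genes. A form of the interferon-stimulated response element, 2 GAAA repeats with 2 bases between them, was in 4 of 38 (10.5%) against 3.99%, among them Psmb3, Psmd4 and, at position 10 after the start, Psme1. The gamma-activated form was in 2 of 38 (5.26%) against 9.55%, in Psmb8 and Psmd2. The CCAAT box was in 15 of 38 (39.5%) against 41.1%. These shares are descriptions of the letters in these windows.

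Across the series, the FPKM values of a library summed to between 446617 and 554382, and between 12056 and 12760 genes reached 1 FPKM. The number of reads behind the values is unknown, so no counting interval can be given. At P36, Med1 was 13.8 ± 0.504 FPKM in controls and 9.11 ± 1.11 FPKM in the libraries labelled DKO (SD, n = 3 each), and it passed the test as lower (log2 fold change -0.55, adjusted p = 0.0083). At 6 months it was 14.2 ± 2.21 and 11.6 ± 0.256 FPKM (log2 fold change -0.26, adjusted p = 0.13). Its 6-month value passed as lower with totals that left out keratin and cornified envelope genes (-0.43, adjusted p = 0.0389). Every DKO library lay below every control for Med1 at both ages, as for 9.63% of all genes at P36 and 24.0% at 6 months. Vdr was not lower at either age, at 68.0 ± 4.16 against 83.5 ± 6.06 FPKM at P36 (adjusted p = 0.0573) and 40.5 ± 11.6 against 48.1 ± 5.49 FPKM at 6 months (adjusted p = 0.302). Without control replicate 1 its 6-month value passed as higher (0.49 log2 units, adjusted p = 0.031). Its P36 value passed as higher with totals that left out muscle, fibroblast and adipocyte genes (0.31, adjusted p = 0.0396). At P36 every DKO library lay above every control for Vdr, as for 30.0% of all genes. Vdr thus went against the label; the deleted exons are not given, and a value over the whole gene includes reads outside them. Genotype is therefore named below as the label of the libraries. The defining keratinocyte markers Krt5 and Krt14 were present in every library.

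At P36 the immunoproteasome genes were higher in the libraries labelled DKO, and the standard subunits were not. All 5 immunoproteasome genes passed the test as higher, with a median log2 fold change of 0.78, whereas 23.3% of the 12660 genes tested were called in either direction and 18.0% higher, with a median of 0.09 over all of them. A call means an adjusted p below 0.05 in limma on log2(FPKM + 1), adjusted over all genes tested. None of the 31 standard subunits was called in either direction (5.32% of all genes were called lower), their smallest adjusted p was 0.107, and their fold changes lay between -0.20 and 0.24 with a median of 0.05. Without adjustment, Psma3 alone of the 31 had a p below 0.05 (0.0334). Without control replicate 3, Psma1 passed as higher (log2 fold change 0.34, adjusted p = 0.0488). The 5 genes called higher were the only calls among the 44.

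Psmb9, the inducible counterpart of Psmb6, measured 7.16, 11.4 and 9.89 FPKM in the P36 controls and 25.0, 35.8 and 20.7 FPKM in the libraries labelled DKO. The lowest DKO library was above the highest control, and the log2 fold change was 1.41 ± 0.22 (SE, adjusted p = 0.00332). Psmb8, which takes the place of Psmb5, measured 10.6, 12.5 and 15.1 FPKM in controls and 31.2, 41.7 and 24.1 FPKM in the DKO libraries. Its groups did not overlap either, and its log2 fold change was 1.26 ± 0.20 (adjusted p = 0.00382). Psmb10, the counterpart of Psmb7, was in controls the least abundant after Psmb9, with 10.5, 12.2 and 10.9 FPKM in controls and 19.7, 25.3 and 14.2 FPKM in the DKO libraries. Its rise was smaller (log2 fold change 0.73 ± 0.19, adjusted p = 0.0255).

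The PA28 cap genes were more abundant. Psme2, the beta subunit of the cap, measured 77.4, 76.9 and 87.1 FPKM in controls and 121, 173 and 128 FPKM in the DKO libraries, a log2 fold change of 0.78 ± 0.14 (adjusted p = 0.00655). Psme1, the alpha subunit, measured 63.1, 71.4 and 74.8 FPKM in controls and 86.8, 131 and 103 FPKM in the DKO libraries, a log2 fold change of 0.59 ± 0.15 (adjusted p = 0.0248). All 5 genes had non-overlapping groups, as 30.0% of all genes did in this direction. DKO replicate 2 was the highest P36 library in each of the 5 genes. Without it, 3 of the 5 genes passed, and without control replicate 1 also 3. Psmb10 (log2 fold change 0.54, adjusted p = 0.0672) and Psme1 (0.44, adjusted p = 0.0648) missed the threshold without DKO replicate 2. Psmb10 also missed it without DKO replicate 1 or control replicates 1 or 3 (adjusted p = 0.0671, 0.0797 and 0.0607). Psme1 missed it without DKO replicate 3 or control replicates 1 or 2 (adjusted p = 0.0723, 0.0843 and 0.0579) and with median-ratio scaling (0.49, adjusted p = 0.07). Psmb8, Psmb9 and Psme2 passed in each of the 14 alternatives tried.

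**Figure D1:**
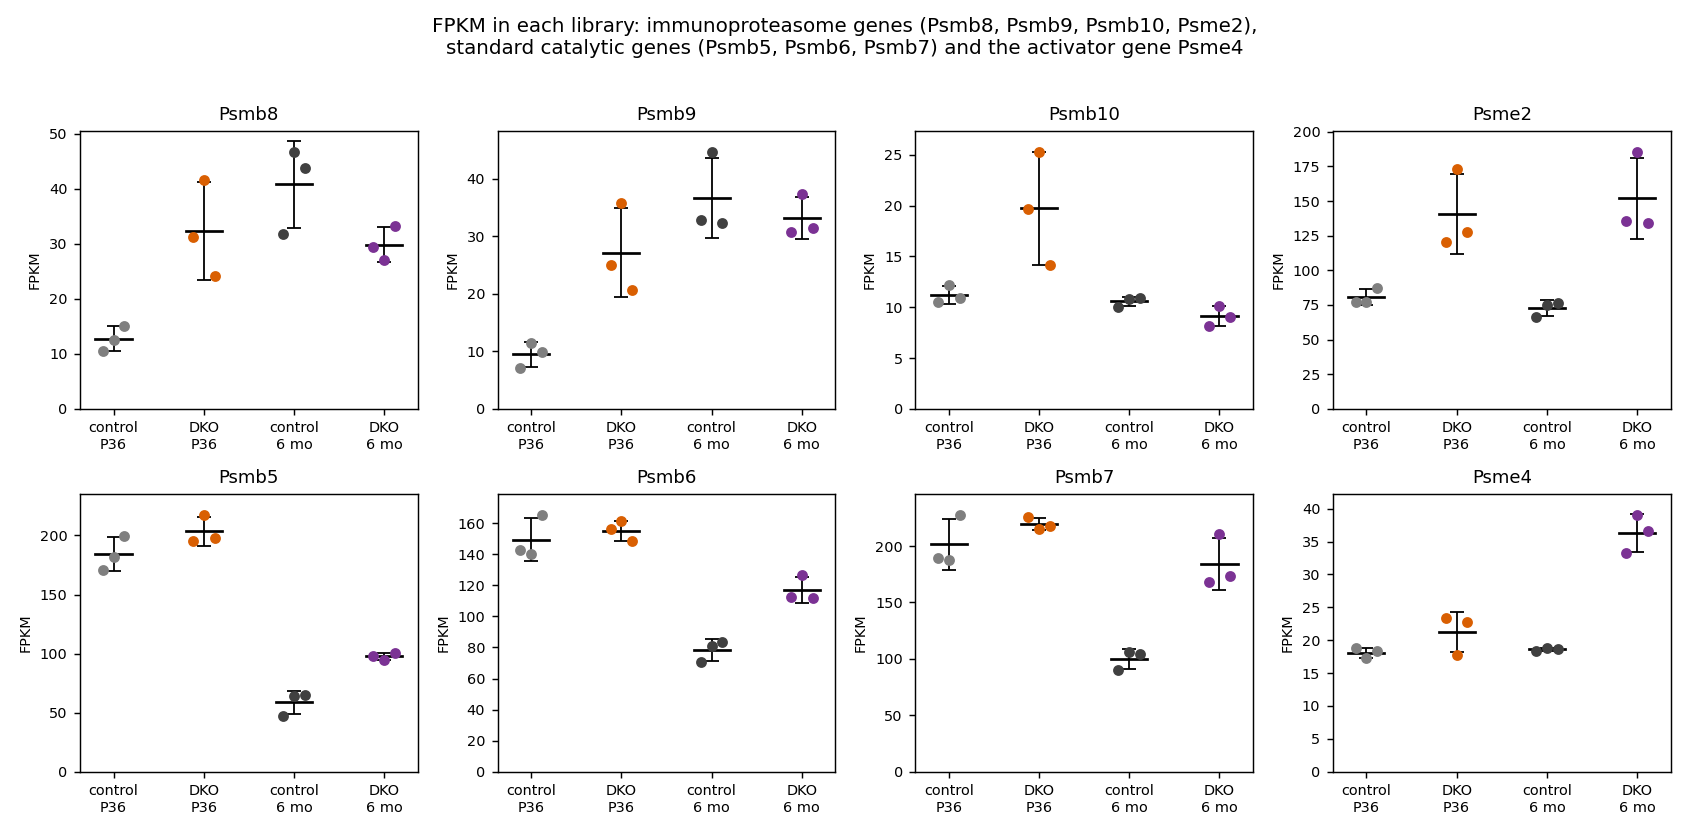
FPKM of 4 immunoproteasome genes, the 3 standard cutting subunits and the cap gene Psme4 in each of the 12 libraries; the axes start at 0, each point is a library, the bar is the group mean and the whiskers are 1 SD. Psmb8 and Psmb9 stand higher in the DKO libraries at P36 and overlap the controls at 6 months, while Psmb5, Psmb6 and Psmb7 overlap at P36 and separate at 6 months.

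The standard cutting subunits overlapped between the groups at P36. Psmb5, which carries the chymotrypsin-like site, measured 171, 182 and 200 FPKM in controls and 195, 218 and 198 FPKM in the DKO libraries (log2 fold change 0.14, adjusted p = 0.354). Psmb6, with the caspase-like site, gave 149 ± 13.9 and 155 ± 6.51 FPKM (log2 fold change 0.06). Psmb7, with the trypsin-like site, gave 202 ± 22.7 and 219 ± 5.41 FPKM (log2 fold change 0.13).

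Among the other standard subunits at P36, the alpha subunits Psma3 (log2 fold change 0.22 ± 0.09, adjusted p = 0.107) and Psma1 (0.24 ± 0.11, adjusted p = 0.151) had the smallest p-values of their class. For beta subunits without a cutting site these were Psmb1 (0.06) and Psmb4 (0.04), for the ATPases Psmc5 (-0.07) and Psmc1 (-0.06), and for the remaining 19S subunits Psmd7 (-0.20) and Psmd2 (0.06). Psmd7 partners the deubiquitinating subunit of the 19S lid, and Psmd2 is a scaffold that docks ubiquitin shuttles. Of the 31, Psma3 was higher and Psmd7 lower in every DKO library than in every control, against 30.0% and 9.63% of all genes. The log2 fold changes of the assembly chaperones Psmd9 and Psmd10 were -0.12 and 0.11, those of the caps Psme3 and Psme4 were -0.09 and 0.21, and those of Psme2b and Psme3ip1 were 0.27 and -0.06. None of these passed the test.

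At 6 months the standard subunits were higher in the libraries labelled DKO, and 4 of the 5 immunoproteasome genes were not called. Of the 31 standard subunits, 24 were called higher and 0 lower, with a median log2 fold change of 0.64. Among the 12594 genes tested, 41.3% were called, 23.2% higher and 18.2% lower, with a median of 0.04. Of the 5 immunoproteasome genes, Psme2 was called higher and none lower. Over all roles, 28 of the 44 genes were called higher and 0 lower. The FPKM sums also differed between the groups at this age, the DKO libraries lying above all 3 controls.

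The whole 20S core was higher in the libraries labelled DKO at 6 months. All 14 of its standard subunits were called higher, with log2 fold changes from 0.48 to 0.91 and a median of 0.82. Here and below, rose and fell mean higher and lower in the DKO libraries than in controls of the same age. Psmb5 measured 47.3, 64.4 and 64.6 FPKM in controls and 98.2, 94.8 and 100.3 FPKM in the DKO libraries, without overlap (log2 fold change 0.74 ± 0.13, adjusted p = 0.0051). Psmb7 measured 90.0, 106 and 105 FPKM in controls and 168, 211 and 174 FPKM in the DKO libraries (log2 fold change 0.87 ± 0.12, adjusted p = 0.00199). Psmb6 rose less, from 70.5, 80.9 and 83.4 FPKM to 113, 127 and 112 FPKM (log2 fold change 0.58 ± 0.10, adjusted p = 0.00497). No DKO library of the 3 genes fell within the control range.

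The 7 alpha subunits, which form the outer rings and the gate of the barrel, all rose, with log2 fold changes from 0.72 to 0.91. Psma1 measured 72.9, 77.5 and 83.1 FPKM in controls and 142, 156 and 140 FPKM in the DKO libraries (log2 fold change 0.90 ± 0.09, adjusted p = 0.000753). Psma3 measured 49.3, 46.2 and 49.7 FPKM in controls and 83.3, 95.4 and 80.0 FPKM in the DKO libraries (log2 fold change 0.82 ± 0.10, adjusted p = 0.00123). The groups were well apart in both.

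Of the 4 beta subunits without a cutting site, Psmb3 had the smallest p, with 103, 112 and 115 FPKM in controls and 201, 221 and 199 FPKM in the DKO libraries (log2 fold change 0.91 ± 0.09, adjusted p = 0.000688). Psmb1 rose from 139 ± 14.4 to 244 ± 19.1 FPKM (log2 fold change 0.81 ± 0.11, adjusted p = 0.00194) and was the most abundant standard subunit of the DKO libraries. Psmb2 and Psmb4 were the other two, with log2 fold changes of 0.57 and 0.48.

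The 19S particle moved less evenly. Of its 17 standard subunits, 10 were called higher and 0 lower, with a median log2 fold change of 0.42. Among the ATPases, 4 of 6 rose. Psmc6 measured 58.9, 60.7 and 64.3 FPKM in controls and 92.6, 113 and 99.2 FPKM in the DKO libraries (log2 fold change 0.71 ± 0.10, adjusted p = 0.0021), and Psmc3 rose from 71.9 ± 3.70 to 107 ± 5.05 FPKM (log2 fold change 0.57 ± 0.09, adjusted p = 0.00283).

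Among the 11 non-ATPase subunits, 6 rose. Psmd6, a lid subunit, measured 41.6, 44.3 and 44.1 FPKM in controls and 72.9, 77.9 and 68.3 FPKM in the DKO libraries (log2 fold change 0.74 ± 0.09, adjusted p = 0.00125). Psmd12, also of the lid, rose from 40.6 ± 0.268 to 65.7 ± 4.74 FPKM (log2 fold change 0.68 ± 0.09, adjusted p = 0.00156). Of the 17 standard subunits of the particle, the 7 that did not pass were Psmc4, Psmc5, Psmd2, Psmd3, Psmd4, Psmd7 and Psmd8. Their log2 fold changes, other than that of Psmd3, lay between 0.12 and 0.27. Psmd3, picked out after its values were seen, had the only negative fold change of the 31, with 54.3, 62.0 and 59.5 FPKM in controls and 55.8, 37.6 and 50.3 FPKM in the DKO libraries (log2 fold change -0.30, adjusted p = 0.151). The DKO groups lay wholly above the controls for 29 of the 31 standard subunits, as they did for 31.8% of all genes; Psmd2 and Psmd3 overlapped.

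The calls of 22 of the 24 standard subunits held in all 14 alternatives, and those of Psmc1 and Psmc2 did not. Psmc1 missed the threshold without any single control or without DKO replicates 1 or 2 (adjusted p from 0.0506 to 0.071), and Psmc2 without DKO replicate 1 or control replicates 2 or 3 (adjusted p from 0.0514 to 0.0607). The call of neither held with median-ratio scaling or either rescaled total, where their adjusted p lay between 0.0624 and 0.11 and their log2 fold changes between 0.19 and 0.36. With totals computed without keratin and cornified envelope genes, the median log2 fold change of all genes went from 0.04 to -0.12 and that of the standard subunits from 0.64 to 0.46, with 22 called higher and 1, Psmd3, lower (log2 fold change -0.48, adjusted p = 0.0492).

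The immunoproteasome genes did not move together at 6 months. Psme2 measured 66.2, 75.2 and 76.6 FPKM in controls and 136, 186 and 135 FPKM in the DKO libraries, without overlap (log2 fold change 1.04 ± 0.15, adjusted p = 0.00193), and passed in all 14 alternatives. Psmb8 measured 31.8, 46.8 and 43.9 FPKM in controls and 29.4, 27.0 and 33.3 FPKM in the DKO libraries. The groups overlapped through control replicate 1, and the log2 fold change of -0.42 ± 0.16 did not pass (adjusted p = 0.0705). Without that library it passed as lower (-0.59, adjusted p = 0.011). It also passed as lower with median-ratio scaling (-0.49, adjusted p = 0.0269), with totals that left out keratin and cornified envelope genes (-0.60, adjusted p = 0.0208) and with totals that left out muscle, fibroblast and adipocyte genes (-0.58, adjusted p = 0.0221).

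The other 3 stayed within overlapping ranges. Psmb9 measured 32.9, 44.7 and 32.4 FPKM in controls and 30.7, 37.3 and 31.5 FPKM in the DKO libraries (log2 fold change -0.13, adjusted p = 0.519). Psmb10 measured 10.1, 10.8 and 10.9 FPKM in controls and 8.17, 10.1 and 9.01 FPKM in the DKO libraries (log2 fold change -0.20, adjusted p = 0.182), and it passed as lower with either rescaled total (-0.37, adjusted p = 0.0248, and -0.35, adjusted p = 0.0324). Psme1 gave 99.8 ± 5.11 and 109 ± 6.03 FPKM (log2 fold change 0.12, adjusted p = 0.305).

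Of the other caps at 6 months, Psme4, which encodes PA200, an activator that opens the core without ATP, measured 18.4, 18.8 and 18.7 FPKM in controls and 33.2, 39.1 and 36.6 FPKM in the DKO libraries. Its log2 fold change was 0.92 ± 0.09 (adjusted p = 0.000687), and the control values were nearly alike. Psme3, the nuclear PA28 gamma, gave 58.9 ± 3.86 and 67.2 ± 4.13 FPKM (log2 fold change 0.19, adjusted p = 0.151). Of the chaperones that assemble the base of the 19S particle, Psmd5 rose (log2 fold change 0.64 ± 0.16, adjusted p = 0.0176) and Psmd10 rose (0.33 ± 0.10, adjusted p = 0.0391), while Psmd9 had -0.21 (adjusted p = 0.137). The call of Psmd10 held in 5 of 14 alternatives, and not without any single control or DKO replicates 2 or 3 (adjusted p from 0.0705 to 0.108), nor with the replicate block (0.33, adjusted p = 0.0675), median-ratio scaling (0.27, adjusted p = 0.0727) or either rescaled total (0.15, adjusted p = 0.239, and 0.18, adjusted p = 0.185). Psmd5 missed the threshold without DKO replicate 2 (0.55, adjusted p = 0.0634). Psmd9 passed as lower with either rescaled total (-0.38, adjusted p = 0.0216, and -0.36, adjusted p = 0.0268). Psmc3ip (0.38), Psme2b (0.20) and Psme3ip1 (0.00) did not pass.

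**Figure D2:**
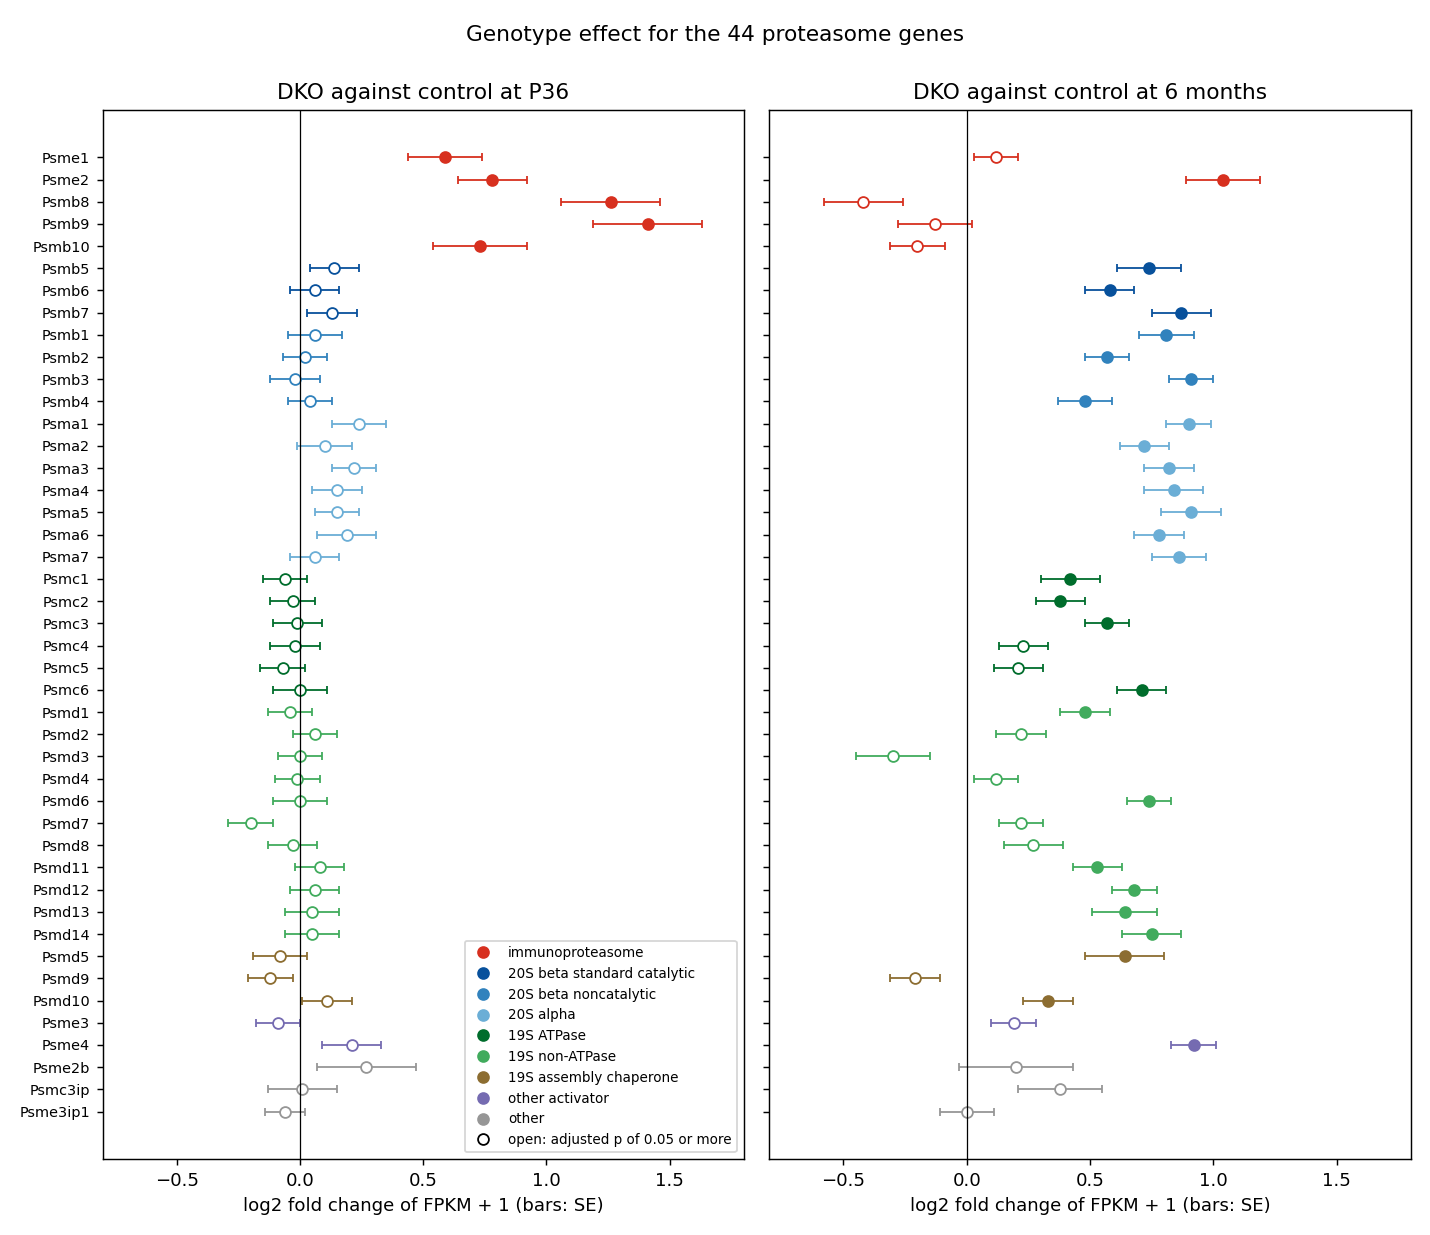
Log2 fold change, DKO against control, of every one of the 44 genes at P36 and at 6 months, coloured by role; bars are 1 SE, filled points have an adjusted p below 0.05 and open points do not. At P36 the 5 immunoproteasome genes are the only ones called, and at 6 months 24 of 31 standard subunits, Psme2, Psme4, Psmd5 and Psmd10 are.

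The change between ages was tested directly as the genotype effect at 6 months minus that at P36. Among the 13280 genes tested, 34.9% were called, 13.8% with a higher effect at 6 months and 21.1% with a lower one. Of the 31 standard subunits, 25 had a higher effect at 6 months and 0 a lower one, with a median difference of 0.59 against -0.08 over all genes. All 14 of the 20S subunits were among them, and 11 of the 17 of the 19S particle. Of the 5 immunoproteasome genes, 3 had a lower effect at 6 months: Psmb8, Psmb9 and Psmb10.

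The smallest p-values of this test belonged to Psmb3 (difference 0.93 ± 0.13 log2 units, SE, adjusted p = 0.00044), Psmb8 (-1.68 ± 0.28, adjusted p = 0.00129) and Psma7 (0.80 ± 0.14, adjusted p = 0.00169). Psma7, an alpha subunit, measured 171, 177 and 203 FPKM in the P36 controls and 183, 204 and 185 FPKM in the P36 DKO libraries, then 84.7, 99.8 and 99.3 FPKM in the 6-month controls and 165, 186 and 166 FPKM in the 6-month DKO libraries. Its 6-month controls stood below every other library. Psmb9 differed by -1.54 ± 0.29 (adjusted p = 0.00247) and Psmb10 by -0.93 ± 0.23 (adjusted p = 0.0106). For Psme1 the difference was -0.47 ± 0.18 (adjusted p = 0.068) and for Psme2 0.26 ± 0.22 (adjusted p = 0.375). For neither gene was the genotype effect shown to differ between ages. Without DKO replicate 1 of P36, Psme1 passed (-0.61, adjusted p = 0.0144), as it did when the totals left out keratin and cornified envelope genes (-0.59, adjusted p = 0.0156) and with the replicate block (-0.47, adjusted p = 0.0484). The 3 immunoproteasome calls and 21 of the 25 standard calls held in all 18 alternatives; those of Psmb4, Psmc1, Psmc2 and Psmd11 did not, each missing the threshold without P36 control replicate 3 (adjusted p from 0.0536 to 0.0648) and some without other libraries. With the replicate block 23 were called, without Psmb4 (adjusted p = 0.0693) and Psmc2 (0.0548), and with totals that left out keratin genes 22, without Psmc1 (0.0501), Psmc2 (0.0677) and Psmd11 (0.0701).

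The levels themselves show where the groups stand. The median FPKM over the 31 standard subunits was 105 to 118 in the P36 controls and 107 to 112 in the P36 DKO libraries. At 6 months it was 63.0 to 72.4 in controls and 92.6 to 97.3 in the DKO libraries. The 6-month controls were therefore the low group, and the 6-month DKO libraries lay between them and the P36 libraries. Each age has a deposited table of its own, so age and table cannot be told apart in any comparison of levels across ages; an offset shared by both genotypes drops out of the difference tested above.

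With that limit, 27 of the 31 standard subunits were called lower and 0 higher at 6 months than at P36 in controls. Their median log2 difference was -0.69. Over all genes 63.1% were called, 27.9% lower and 35.3% higher, with a median of 0.1. Of the 31, Psmb5 (-1.64, adjusted p = 3.44e-07) and Psmb4 (-1.34, adjusted p = 3.05e-07) differed most. In the libraries labelled DKO, 12 of the 31 were called lower and 5 higher, with a median of -0.15. Over all genes 60.0% were called there, 32.0% lower and 28.0% higher, with a median of -0.06. The comparisons share libraries with the genotype comparisons and add no independent evidence to them.

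Of the 5 immunoproteasome genes, 3 were called higher and 0 lower with age in controls, against the 35.3% and 27.9% of all genes given above. Psmb9 (log2 difference 1.85, adjusted p = 1.21e-05), Psmb8 (1.60, adjusted p = 2.88e-05) and Psme1 (0.51, adjusted p = 0.00475) passed, while Psmb10 (-0.07) and Psme2 (-0.15) did not pass. In the libraries labelled DKO, Psmb10 was lower at 6 months (-1.0, adjusted p = 0.000334) and the other 4 lay between -0.08 and 0.31 without passing. Without P36 DKO replicate 2, Psmb9 passed as higher (0.52, adjusted p = 0.0434). Across the 4 groups Psmb8 thus ran from 12.7 ± 2.27 FPKM in P36 controls to 29.9 ± 3.15 in 6-month DKO, 32.3 ± 8.87 in P36 DKO and 40.8 ± 7.93 in 6-month controls (SD, n = 3 each), and the last 3 overlapped.

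Ratios within a library are free of the scaling between libraries, and are given as descriptions with no test. The ratio of Psmb8 to Psmb5 was 0.0619 to 0.0756 in P36 controls and 0.122 to 0.192 in P36 DKO libraries, then 0.672 to 0.726 in 6-month controls and 0.285 to 0.332 in 6-month DKO libraries. The 4 groups did not overlap, and the order of the genotypes turned between ages. Psmb9 over Psmb6 was 0.0502 to 0.0813, 0.14 to 0.222, 0.388 to 0.553 and 0.272 to 0.295 in the same order of groups. Psmb10 over Psmb7 was 0.0477 to 0.0651 and 0.0651 to 0.118 at P36, where the groups met, and 0.102 to 0.112 and 0.0481 to 0.0519 at 6 months.

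The cap genes behaved otherwise. The ratio of Psme2 to Psme3 was 1.14 to 1.36 and 1.84 to 2.98 at P36, and 1.1 to 1.4 and 1.87 to 2.9 at 6 months, higher in every DKO library than in every control at both ages. Psme1 over Psme3 was 0.992 to 1.17 and 1.32 to 2.25 at P36, and overlapped at 6 months at 1.58 to 1.83 and 1.49 to 1.8. As a mean over genes on the log2(FPKM + 1) scale, the 5 immunoproteasome genes stood -2.16 from the 31 standard subunits in P36 controls and -1.25 in P36 DKO libraries, a difference of 0.91 (pooled SD 0.26). At 6 months they stood at -0.71 and -1.20, a difference of -0.49 (pooled SD 0.06). At that age the immunoproteasome mean itself overlapped, at 5.25 to 5.53 in controls and 5.38 to 5.59 in DKO libraries. The mean of the standard subunits was 6.00 to 6.16 in controls and 6.61 to 6.78 in DKO libraries.

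**Figure D3:**
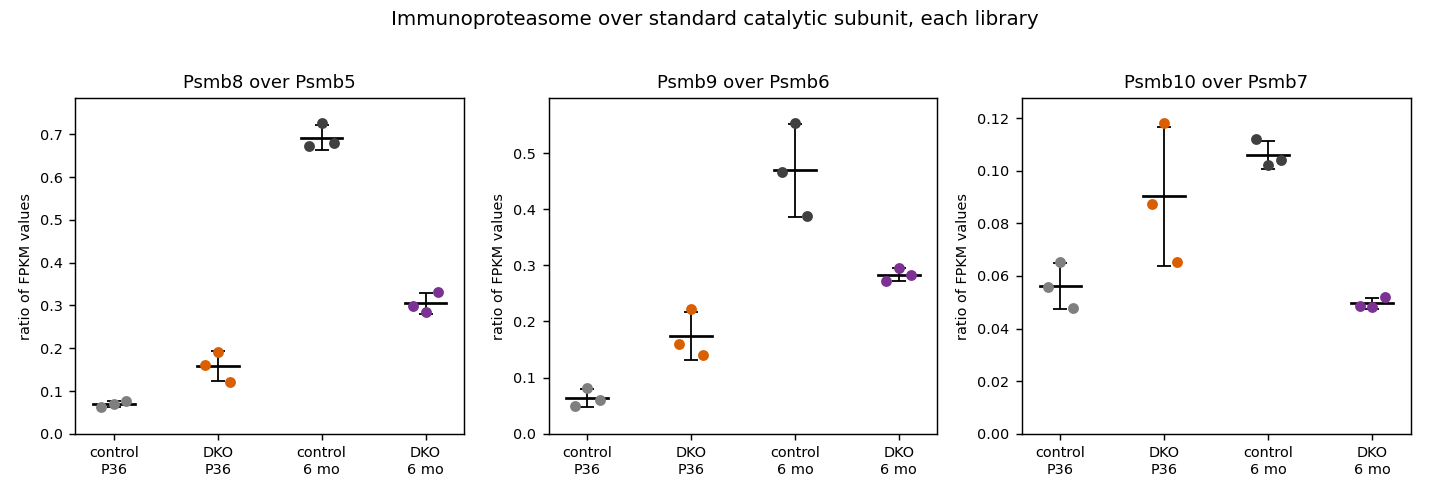
Ratio of the FPKM of an immunoproteasome cutting subunit to that of the standard subunit it replaces, in each library, with group means (bars) and 1 SD (whiskers); the axes start at 0. The DKO libraries lie above the controls at P36, meeting them for Psmb10, and below them at 6 months in all 3 pairs.

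The other genes of the pathway were described from lists of known members. Of 11 assembly factors and other proteasome proteins, 0 were called at P36 (median log2 fold change 0.06; Sem1, a small subunit of the lid, had the smallest p, 0.34, adjusted p = 0.0629). At 6 months 7 were called higher and 0 lower (median 0.51), against 23.2% and 18.2% of all genes, among them Pomp, the maturation factor of the 20S core (1.16 ± 0.11, adjusted p = 0.000507), Psmg1, a chaperone of the alpha ring (0.86 ± 0.11, adjusted p = 0.0016), and Sem1 (0.78 ± 0.10, adjusted p = 0.00129). Pomp measured 101, 114 and 115 FPKM in the 6-month controls and 237, 277 and 231 FPKM in the DKO libraries.

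Among 7 regulators of proteasome genes, 2 were called higher and 0 lower at P36, against 18.0% and 5.32% of all genes: Nfe2l2, the regulator of the oxidative stress response (0.65 ± 0.10, adjusted p = 0.00291), and Nfe2l1, which drives proteasome genes when proteasome activity is short (0.67 ± 0.12, adjusted p = 0.00683). At 6 months 3 were called higher, against 23.2% of all genes: Nfe2l3, a relative of both (1.2 ± 0.12, adjusted p = 0.000652), Ngly1, the deglycosylating enzyme that processes the Nfe2l1 protein (0.57 ± 0.11, adjusted p = 0.00573), and Nfe2l1 (0.28 ± 0.09, adjusted p = 0.0381). With so few genes, neither count stands clear of the share of all genes. The 6-month call of Nfe2l1 held in 3 of 14 alternatives, with log2 fold changes from 0.10 to 0.31 and adjusted p up to 0.366, and it was lost without any single library of that age (adjusted p from 0.0648 to 0.12). Nfe2l3 measured 11.9, 14.4 and 14.9 FPKM in 6-month controls and 29.5, 34.2 and 34.6 FPKM in the DKO libraries, and its groups overlapped at P36.

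Of 13 genes for ubiquitin supply and delivery, 0 were called at P36 (median 0.02; smallest p for the shuttle gene Ubqln1, 0.19, adjusted p = 0.226). At 6 months 4 were called higher and 1 lower (median 0.15), near the 23.2% and 18.2% of all genes. Rps27a, which encodes ubiquitin fused to a ribosomal protein, rose (0.63 ± 0.12, adjusted p = 0.00668), as did the shuttle gene Rad23b (0.37 ± 0.08, adjusted p = 0.0102), and the shuttle gene Ubqln2 fell (-0.59 ± 0.15, adjusted p = 0.0166). Rad23b missed the threshold with totals that left out keratin genes (0.19, adjusted p = 0.0714), and Ubqln2 without control replicate 2 (-0.57, adjusted p = 0.0538).

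Of 11 genes of MHC class I presentation, which uses immunoproteasome products, 9 were called higher and 0 lower at P36, with a median of 0.87, against 18.0% and 5.32% of all genes. Nlrc5, the transcriptional activator of this gene set (1.09 ± 0.13, adjusted p = 0.00138), the light chain gene B2m (1.51 ± 0.19, adjusted p = 0.0014) and the heavy chain gene H2-D1 (1.06 ± 0.15, adjusted p = 0.0021) had the smallest p-values. At 6 months 4 were called higher and 3 lower, with a median of -0.07, against 23.2% and 18.2%. The chaperone gene Canx (0.71 ± 0.10, adjusted p = 0.00202) and B2m (0.65 ± 0.12, adjusted p = 0.00514) rose, and the peptide transporter gene Tap1 fell (-0.75 ± 0.14, adjusted p = 0.00576). Tap1 measured 49.8, 67.7 and 57.4 FPKM in 6-month controls and 37.8, 30.2 and 34.8 FPKM in the DKO libraries.

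Of the interferon gamma signalling genes, 10 of 13 tested at P36 were called higher and 0 lower, with a median of 0.72, against 18.0% and 5.32% of all genes. The kinase gene Jak1 (1.2 ± 0.11, adjusted p = 0.000486), the transcription factor gene Irf1 (0.92 ± 0.11, adjusted p = 0.00116) and the receptor gene Ifngr1 (0.92 ± 0.13, adjusted p = 0.00216) had the smallest p-values. At 6 months 4 of 14 were called higher and 0 lower, with a median of -0.08, near the 23.2% of all genes called higher and below the 18.2% called lower. The called genes included the chemokine genes Cxcl9 (1.14 ± 0.15, adjusted p = 0.00144) and Cxcl10 (0.71 ± 0.13, adjusted p = 0.0051) and the receptor gene Ifngr2 (0.99 ± 0.14, adjusted p = 0.0022). Of the 14 fold changes, 6 were positive and 8 negative. Ifngr1 (-0.69, adjusted p = 0.0771) passed as lower in 4 of 14 alternatives, and Irf1 in 2 of 14.

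**Figure D4:**
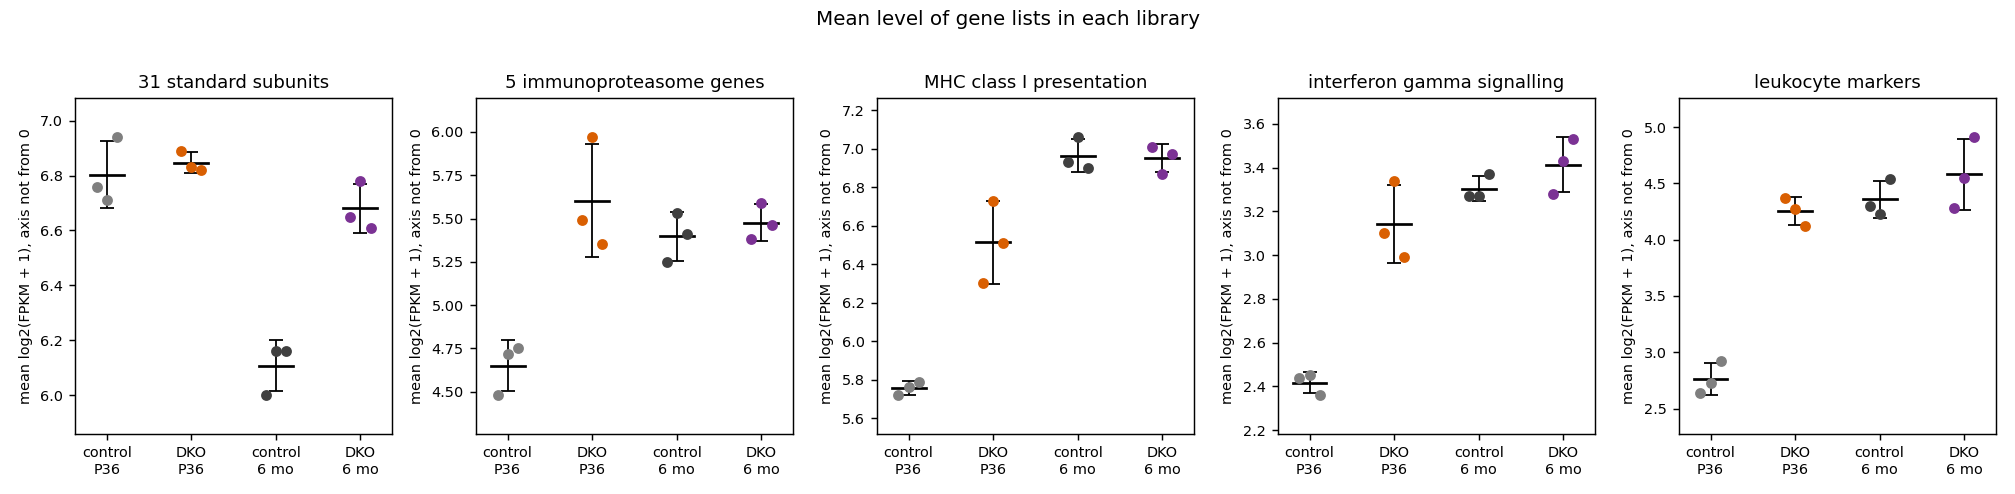
Mean log2(FPKM + 1) over the genes of 5 lists in each library, with group means (bars) and 1 SD (whiskers); the axes do not start at 0. The standard subunits are lowest in the 6-month controls, and the leukocyte, MHC class I and interferon gamma lists are lowest in the P36 controls, as are the 5 immunoproteasome genes.

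Cell type markers moved beside these genes. Of 17 leukocyte markers tested at P36, 15 were called higher and 0 lower in the libraries labelled DKO, with a median log2 fold change of 1.52, against 18.0% and 5.32% of all genes. Their summed FPKM was 211 to 320 in P36 controls and 712 to 899 in P36 DKO libraries, and none of them was at 0 in any library. At 6 months 3 were called higher and 4 lower (median -0.03), near the 23.2% and 18.2% of all genes, and the sums were 1090 to 1490 in controls and 747 to 1140 in DKO libraries. DKO replicate 2 at P36, highest for the immunoproteasome genes, was also highest of its group in the mean log2 level of several lists. These were MHC class I (6.73, against 6.30 and 6.51), interferon gamma (3.34, against 3.10 and 2.99), endothelium (3.16, against 2.62 and 3.06) and ubiquitin supply (6.91, against 6.86 and 6.90). It was not highest for the leukocyte list (4.27, against 4.37 and 4.12) or the remaining lists. This library was picked out after its values were seen, and what the lists share was not tested. In bulk tissue, fewer cells of a type and less RNA per cell cannot be told apart, and the part of leukocyte RNA in the immunoproteasome values was not tested.

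Other lists were also higher in the P36 DKO libraries. Of the markers tested, 13 of 14 for skeletal muscle (median 3.22), 5 of 10 for dermal fibroblasts, 7 of 9 for adipocytes and 3 of 5 for endothelium were called higher, and 0 of each lower, beside 18.0% and 5.32% of all genes. The summed FPKM of the muscle list was 22.4 to 41.1 in P36 controls and 180 to 729 in P36 DKO libraries. Of the keratinocyte markers, 4 of 10 were called higher and 1 lower at P36. At 6 months, where the standard subunits rose, the muscle, fibroblast and adipocyte lists gave 0 of 10, 0 of 10 and 1 of 9 called higher, and 1, 1 and 0 lower, beside 23.2% and 18.2% of all genes. DKO replicate 3 stood apart there: its muscle sum was 187 FPKM against 24.2 and 14.9 in the other DKO libraries and 35.3 to 103 in controls, and its fibroblast sum 1020 against 325 and 404, with 529 to 991 in controls. Of the keratinocyte markers 2 of 10 were called higher and 4 lower at that age, with summed FPKM of 14600 to 19600 in controls and 11500 to 14300 in DKO libraries. Of the 5 red blood cell markers 4 were called higher, with sums of 42.0 to 114 in controls and 113 to 273 in DKO libraries. The part of these lists in the proteasome values was not tested.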

How the data were processed

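Total RNA of mouse epidermis was depleted of ribosomal RNA and sequenced as 50-base single-end reads, per the labels' protocols. The deposited values are FPKM per gene, in 1 table for each age; HISAT2 2.1.0 and RSEM 1.2.8 are named in the submitters' processing notes, which name human builds, so no coordinates were taken from the files. The deposited tables also hold the authors' log2 ratios, p-values and q-values, used only where named; no source used here states their test. Gene IDs matched RefSeq mouse genes (GRCm38.p6 gene table) for 19343 of 19392 at P36 and 17712 of 17750 at 6 months.

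Values were analysed as log2(FPKM + 1) with limma 3.58.1 (R 4.3.3, trend on), after keeping genes with 1 FPKM or more in at least 3 libraries of the fit. The genotype effect at an age was estimated from the 6 libraries of that age; the difference between ages and the age effects used all 12. P-values were adjusted by Benjamini-Hochberg over all genes tested, and a fold change is on the log2(FPKM + 1) scale, which understates changes of low genes. The procedure was tested on simulated data. No pair of libraries of a group held nearly identical values. The members, lists and motifs were chosen with earlier results of these data known.

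Named with values were the targeted genes, the 5 immunoproteasome genes, Psmb5, Psmb6, Psmb7, Psme3 and Psme4, and, in every other class, the members with the 2 smallest p at each age. The 3 members with the smallest p for the difference, and up to 3 called genes per pathway list and age, were also named. Alternatives changed the pseudocount, filter, scaling, block, joint fit and replicates left out.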

Additional observations from a re-analysis of the deposited data

Results flagged for a closer look

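The genotype effect differed between ages for 30 of the 44 proteasome genes and for 18 of the pathway genes named above. The test was that of the difference itself (limma, adjusted p below 0.05), which called 34.9% of the 13280 genes tested. The pathway genes had been named for a small p at P36 or 6 months, so their count is not a result about the pathways. Values in parentheses are the effect at 6 months minus that at P36, in log2 units. Groups of 3 libraries were too small to look for outlying samples.

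The effect was lower at 6 months for the immunoproteasome cutting subunits Psmb8 (-1.68), Psmb9 (-1.54) and Psmb10 (-0.93). It was higher at 6 months for the alpha subunits Psma1 (0.65), Psma2 (0.62), Psma3 (0.60), Psma4 (0.69), Psma5 (0.76), Psma6 (0.59) and Psma7 (0.80). The beta subunits of the standard core with a higher effect were Psmb1 (0.76), Psmb2 (0.56), Psmb3 (0.93), Psmb4 (0.44), Psmb5 (0.60), Psmb6 (0.52) and Psmb7 (0.74). Among the ATPases these were Psmc1 (0.48), Psmc2 (0.41), Psmc3 (0.58) and Psmc6 (0.72), and among the other 19S subunits Psmd1 (0.52), Psmd6 (0.74), Psmd7 (0.42), Psmd11 (0.46), Psmd12 (0.62), Psmd13 (0.59) and Psmd14 (0.70). The cap gene Psme4 (0.71) and the assembly chaperone gene Psmd5 (0.72) also had a higher effect.

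Of the antigen presentation and interferon genes, the effect was lower at 6 months for Tap1 (-1.68), Ifngr1 (-1.61), H2-D1 (-1.33), Irf1 (-1.22), Nlrc5 (-1.16), Jak1 (-0.98) and B2m (-0.85), and higher for Canx (0.43), Ifngr2 (0.66) and Cxcl9 (0.80). Of the assembly factors it was higher for Sem1 (0.43), Psmg1 (0.81) and Pomp (0.90). Of the regulators it was lower for Nfe2l2 (-0.39) and higher for Nfe2l3 (1.39); the call of Nfe2l2 held in 6 of 18 alternatives. Those of Sem1 and Cxcl9 held in 9 of 18 and 12 of 17. Of the ubiquitin genes it was lower for Ubqln2 (-0.74) and higher for Rad23b (0.47) and Rps27a (0.71).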

How the results depend on the processing

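No called value of the 44 genes or of the other named genes reversed. The other list genes and the list counts were not summarised under the alternatives. Leaving out single libraries gave 3 to 4 immunoproteasome genes called higher at P36, 0 to 1 standard subunits called higher at P36 (Psma1, without control replicate 3), 0 to 1 immunoproteasome genes called lower at 6 months and 0 to 1 called higher with age in DKO. Over all genes at P36 it gave 1662 to 2660 calls against 2949, the fewest without DKO replicates 2 (1662) and 3 (1697). Immunoproteasome genes called lower at 6 months numbered 1 with median-ratio scaling and 2 with either rescaled total, against 0; standard subunits called lower numbered 1 with totals without keratin genes, against 0.

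Scaling moved the split of calls: 2275 higher and 674 lower at P36 became 1703 and 965 with median-ratio scaling, and 2918 and 2289 at 6 months became 2453 and 2732 with it, 1903 and 3287 when keratin and cornified envelope genes were left out of the totals, and 2044 and 3124 when muscle, fibroblast and adipocyte genes were. The cause was not tested.

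The labels give no pairing of libraries across genotypes. Deviations of same-numbered libraries from their group means correlated at 0.135, -0.058 and -0.115 at P36 and at -0.063, 0.032 and 0.183 at 6 months. Those of different-numbered libraries correlated at -0.206 to 0.206 at P36 and at -0.202 to 0.234 at 6 months. With 3 libraries in a group, such values cannot exclude a pairing. With the replicate number as a block, 2607 genes were called at P36 and 4862 at 6 months, 5 immunoproteasome and 0 standard members at P36, 24 standard and 1 immunoproteasome member at 6 months, and 23 standard members higher and 4 immunoproteasome members lower in the difference. Depth is unknown, so the precision of low values cannot be given.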

Other observations

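The authors' deposited tables give their own log2 ratios and q-values for these genes. Some of these q-values lie below the authors' p-value for the same gene, as for Psmb4 at P36 (q = 0.0311, p = 0.059, test not stated). A q below 0.05 there is therefore not the same threshold as an adjusted p below 0.05 here. At P36 the authors' deposited table has 5 of 5 immunoproteasome genes higher at a q below 0.05, and 16 standard subunits higher and 5 lower of 31; at the same threshold 69.9% of its genes pass. At 6 months the authors' deposited table has 30 standard subunits higher and 1 lower, and 2 immunoproteasome genes higher and 3 lower, where 80.6% of its genes pass. In the authors' deposited table the 6-month log2 ratios of Psmb8, Psmb9 and Psmb10 are -0.45, -0.14 and -0.22. The deposited ratios of these 3 genes have the sign found here, but they describe the same libraries and add no independent evidence. None of the 3 genes passed the limma test on the libraries as deposited.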
